A study of Mus musculus with 17 samples.

Results

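This section describes 10 receptor genes of mouse macrophages: the Fc gamma receptor genes Fcgr1, Fcgr3, Fcgr4 and Fcgr2b, the signalling chain Fcer1g of the activating ones, the efferocytosis receptor kinases Mertk and Axl, and the scavenger receptors Marco, Mrc1 and Stab1. They were taken by symbol from a table of 21683 rows, all 10 were present, and all 10 were among the 10451 genes expressed highly enough to be tested (at least 1 TPM, an abundance of transcripts scaled to their length and to the library's total, in at least 5 libraries). RNA-Seq was performed on cultured peritoneal macrophages (PMs) of 8-week-old C57BL/6 mice that had been injected with 1 mL of 3% thioglycollate, an irritant that draws macrophages into the peritoneal cavity. After attaching for 4 hours, the cells were treated for 12 hours with 100 nM of Tat, the transactivator protein of HIV, or with PBS. The groups were IKKβ F/F PMs given PBS (here floxed PBS, n = 6, libraries 1 to 6), IKKβ F/F PMs given Tat (floxed Tat, n = 6, libraries 7 to 12) and IKKβΔMye PMs given Tat (ΔMye Tat, n = 5, libraries 19 to 23). In IKKβ F/F mice the gene of the kinase IKKβ (Ikbkb), which activates NF-κB, is flanked by loxP sites (floxed) and intact. In IKKβΔMye mice it is deleted in myeloid cells by Cre expressed from the lysozyme M gene (Lyz2). IKKβΔMye PMs given PBS were not analysed here, so a difference of ΔMye Tat from floxed Tat may include one that was there before Tat. The study's account treats the libraries as biological replicates from mice, while the labels do not tie a library to an animal, so p-values measure the spread between libraries.

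Fc gamma receptors bind the constant part of IgG and let macrophages take up antibody-coated particles. Fcgr1, Fcgr3 and Fcgr4 encode activating receptors that need the signalling chain encoded by Fcer1g, whereas Fcgr2b encodes the inhibitory receptor, which carries its own inhibitory motif. Mertk and Axl are receptor tyrosine kinases that recognise dying cells through bridging proteins such as Gas6, and Marco, Mrc1 and Stab1 bind modified lipoproteins, microbial surfaces, glycoproteins or altered cells.

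In GRCm38, 4 of the 10 genes lie within a stretch of chromosome 1: Fcgr2b (chr1:170958617-170976547, minus strand), Fcgr4 (chr1:171018920-171029761, plus strand), Fcgr3 (chr1:171051174-171064935, minus strand) and Fcer1g (chr1:171229572-171234365, minus strand). Marco (chr1:120474538-120505024, minus strand) is elsewhere on that chromosome. Fcgr1 is at chr3:96282909-96293969 (minus strand), Mertk at chr2:128698956-128802894 (plus), Mrc1 at chr2:14229392-14332057 (plus), Axl at chr7:25757273-25788705 (minus) and Stab1 at chr14:31139013-31168641 (minus). Fcgr2b and Fcgr3 have near-identical coding stretches, and this bears on how their reads are divided. Of the 31-base sequences of Fcgr3 transcripts, 13.4% also occur in Fcgr2b. Of those of Fcgr2b, 4.15% occur in Fcgr3 and 8.15% in any other gene, Fcgr3 included. The longest coding run the pair shares is 129 bases long and crosses from exon 3 to exon 4 of both genes (chr1:170967980-170968081 and chr1:170966674-170966700 in Fcgr2b, chr1:171057691-171057792 and chr1:171054167-171054193 in Fcgr3). It is shown 5′ to 3′ on the coding strand, with the bases of exon 4 in capitals.
Fcgr2b and Fcgr3: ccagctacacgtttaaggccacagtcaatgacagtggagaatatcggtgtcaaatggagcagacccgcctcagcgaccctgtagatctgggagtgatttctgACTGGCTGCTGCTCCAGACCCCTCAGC
The values of these 2 genes are therefore less certain than those of Fcgr1, Fcer1g, Mertk, Axl, Marco and Mrc1, which shared no 31-base sequence with another gene. For Fcgr4 and Stab1 the part shared with any other gene was 1.39% and 1.66%.

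Fcgr1 and Fcgr4 were the only members with a searched motif in their RefSeq promoter window (GRCm38.p6, 250 bases before to 50 after the start site). Both strands were searched for the gamma-activated sequence (GAS, TTCNNNGAA), the core of the interferon-stimulated response element (ISRE, GAAANNGAA) and a κB core (GGANTTTCC). The last bases of a GAS can be the first of an ISRE core, so these matches can overlap. The stretches around the matches are shown 5′ to 3′ on the strand of the gene, with the match in capitals. The first is at chr3:96294030-96294118 (minus strand) and its GAS begins 109 bases before the start site, and the second is at chr1:171018813-171018901 (plus strand) and its ISRE core begins 73 bases before the start site.
Fcgr1 promoter stretch: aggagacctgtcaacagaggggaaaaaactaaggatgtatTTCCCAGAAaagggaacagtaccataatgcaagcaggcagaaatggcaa
Fcgr4 promoter stretch: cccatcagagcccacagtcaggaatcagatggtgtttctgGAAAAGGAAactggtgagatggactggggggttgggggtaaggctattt
A match of this kind is common, since 8.3% of all 32851 promoter windows hold a GAS and 8.56% an ISRE core. No member had a κB core in its window, and 1.25% of all windows did.

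The table lists TPM, so levels can be compared between genes per length, but read depth is unknown. The listed genes of a library summed to 889318 to 903576 TPM. The 8 macrophage markers used as a check, which include Fcgr1, were above 1 TPM in every library and summed to 7993 to 26845 TPM, with Lyz2 highest at 21615 to 22806 TPM in floxed PBS, 6823 to 7246 TPM in floxed Tat and 4154 to 4617 TPM in ΔMye Tat. Ikbkb was 26.8 ± 1.99 TPM in floxed PBS, 23.2 ± 1.44 TPM in floxed Tat and 16.4 ± 2.59 TPM in ΔMye Tat (mean ± SD), so the deleted gene was lower in ΔMye Tat than in floxed Tat (log2 difference -0.51 ± 0.08 SE, limma adjusted p = 4.51e-05) but not absent. Markers of other cells summed to less: over 6 B cell markers, 47.0 to 63.8 TPM in floxed PBS, 23.8 to 27.4 in floxed Tat and 23.1 to 35.9 in ΔMye Tat, and over 7 neutrophil markers 57.5 to 68.7, 66.9 to 77.9 and 87.8 to 106, most of it S100a8. Mast cell markers summed to 34.4 to 46.9, 125 to 146 and 78.8 to 90.3 TPM, with the increase in Hdc (0.396 to 0.873 TPM in floxed PBS and 92.3 to 102 TPM in floxed Tat). Sums over T cell, NK cell and eosinophil markers stayed under 11 TPM, those over endothelial and mesothelial or fibroblast markers between 5.59 and 30.9 TPM, and those over dendritic cell markers, mainly Ccr7, between 7.04 and 46.2 TPM. The neutrophil gene Ngp, the eosinophil gene Ear1 and the endothelial gene Tek were listed at 0 in all 17 libraries. In bulk RNA, fewer cells of a type and less RNA per cell cannot be told apart, and the part of other cells in the results was not tested.

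Libraries 19 and 23 of ΔMye Tat stood apart by transcript length. Relative to their group, genes in the longest quartile of transcripts exceeded those in the shortest by 0.27 on the log2 scale in library 19 and were 0.37 below them in library 23, against -0.16 to 0.19 in the other 15 libraries. Library 23 had the lowest ΔMye Tat value of Mertk, Axl, Mrc1 and Stab1, whose longest coding transcripts have 4265 to 7999 bases, and the highest of Fcgr1, Fcgr3, Fcgr4, Fcgr2b and Fcer1g, with 683 to 3544 bases. Marco, with 1925 bases, did neither, at 69.2 TPM in library 23 within a ΔMye Tat range of 64.4 to 73.3 TPM. Where a member crossed the adjusted p threshold in either direction without these libraries, its values are given with and without them. The differences between groups also have a common part: over all tested genes the median log2 difference was -0.65 between floxed Tat and floxed PBS, 0.22 between ΔMye Tat and floxed Tat and -0.43 between ΔMye Tat and floxed PBS. Each library was therefore also scaled by its median ratio to the other libraries, which brought these medians to -0.03, 0.01 and -0.02. Scaled log2 differences are given beside the deposited ones for the members with Tat in floxed PMs and between ΔMye Tat and floxed Tat. Values of other genes, and of ΔMye Tat against floxed PBS, are as deposited unless scaling is named.

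In floxed PBS, the level in TPM fell in the order Fcer1g, Fcgr3, Fcgr2b, Fcgr1, Marco, Fcgr4, Mrc1, Stab1, Axl and Mertk. Of the neighbours in that order, Fcgr4 and Mrc1 overlapped between libraries, as did Axl and Mertk. In floxed Tat the order was Fcer1g, Fcgr2b, Fcgr1, Axl, Fcgr3, Fcgr4, Marco, Mertk, Mrc1 and Stab1, with no overlap between neighbours. In ΔMye Tat, Fcgr3 and Axl ranked above Fcgr1, and neighbours overlapped for Fcgr3 with Axl and for Axl with Fcgr1. The plot of TPM by library shows these levels.

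**Figure D1:**
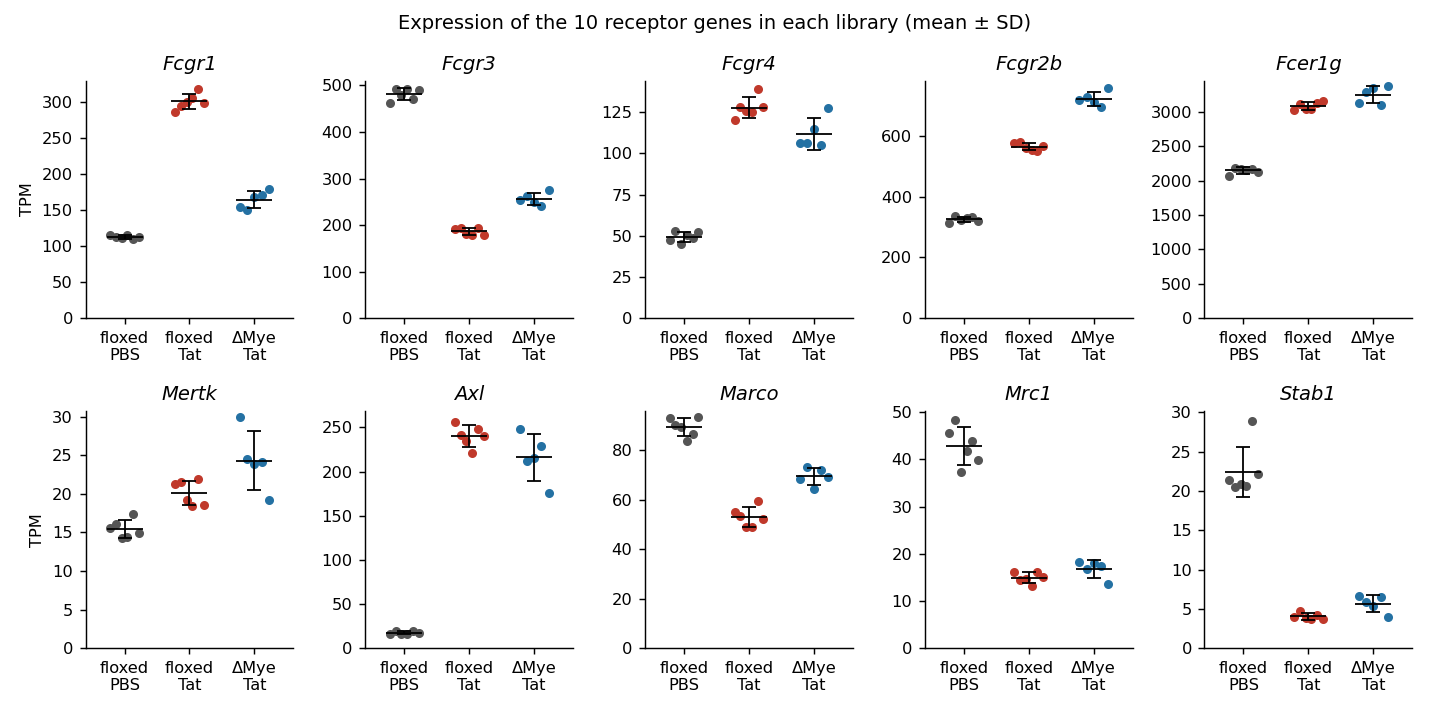
TPM of the 10 receptor genes (vertical axes, each from 0) in the 6 floxed PBS, 6 floxed Tat and 5 ΔMye Tat libraries. Points are libraries, and black bars are the mean ± SD. Axl is 16.0 to 20.1 TPM in floxed PBS and at least 176 TPM in all Tat libraries, Fcgr1 is highest in floxed Tat, and Fcgr3 and Stab1 are highest in floxed PBS.

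The first comparison, floxed Tat against floxed PBS, asks what Tat does to these receptor genes when IKKβ is intact. Axl was 13.5-fold higher and Stab1 5.40-fold lower, and these were the members that met both thresholds for a call, an adjusted p under 0.01 and a change of over 3-fold. Over all tested genes, 5.21% were called higher and 19.4% lower. By the adjusted p alone, 6 members rose (Fcgr1, Fcgr4, Fcgr2b, Fcer1g, Mertk and Axl), against 17% of tested genes, and 4 fell (Fcgr3, Marco, Mrc1 and Stab1), against 67.6%. No member overlapped between the groups, as for 77.6% of tested genes. The median log2 difference of the members was 0.45, against -0.65 for all tested genes. After scaling, 37.3% of tested genes rose and 38.0% fell by the adjusted p. On that scale 6 members rose and 3 fell, and Fcgr1 and Fcgr4 also exceeded 3-fold.

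Among the activating Fc receptor genes, Fcgr1 and Fcgr4 rose and Fcgr3 fell. Fcgr1, the high-affinity IgG receptor, was 109 to 116 TPM in floxed PBS (median 113) and 286 to 318 TPM in floxed Tat (median 299). The groups were far apart and each was narrow, with a log2 difference of 1.41 ± 0.04 (SE, limma adjusted p = 1.83e-17) and of 2.05 after scaling. Fcgr4, which binds IgG of some subclasses with intermediate affinity, was 44.8 to 53.0 TPM in floxed PBS (median 49.4) and 120 to 139 TPM in floxed Tat (median 127). Its log2 difference of 1.37 ± 0.05 (adjusted p = 3.1e-15) was close to that of Fcgr1, and it was 2.0 after scaling. Fcgr3, the low-affinity activating receptor, went the other way, from 463 to 493 TPM (median 484) in floxed PBS to 178 to 195 TPM (median 187) in floxed Tat. This was a log2 difference of -1.37 ± 0.03 (adjusted p = 4e-18), and of -0.73 after scaling (adjusted p = 8.91e-12).

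The inhibitory receptor gene and the signalling chain rose as well. Fcgr2b was 315 to 337 TPM in floxed PBS (median 326) and 551 to 581 TPM in floxed Tat (median 564), a log2 difference of 0.79 ± 0.03 (limma adjusted p = 1.99e-16) and of 1.43 after scaling. Fcer1g was the most abundant member in every library, at 2063 to 2191 TPM in floxed PBS (median 2165) and 3031 to 3157 TPM in floxed Tat (median 3075). Its log2 difference was 0.52 ± 0.02 (adjusted p = 1.19e-13), and 1.16 after scaling.

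Among the receptor kinases, Axl rose far more than Mertk. Axl was 16.0 to 20.1 TPM in floxed PBS (median 17.3) and 221 to 256 TPM in floxed Tat (median 240.5). The log2 difference of 3.75 ± 0.07 (limma adjusted p = 8.15e-20, 4.38 after scaling) exceeded that of 98.9% of tested genes. Mertk was 14.2 to 17.4 TPM in floxed PBS (median 15.2) and 18.4 to 21.9 TPM in floxed Tat (median 20.2). Its groups did not overlap but lay close together, with a log2 difference of 0.38 ± 0.08 (adjusted p = 0.000294) and of 1.01 after scaling.

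The scavenger receptor genes were all lower in floxed Tat. Stab1, which encodes the endocytic receptor stabilin, was 20.6 to 28.9 TPM in floxed PBS (median 21.2) and 3.73 to 4.80 TPM in floxed Tat (median 3.91), a log2 difference of -2.43 ± 0.11 (limma adjusted p = 8.49e-14) and of -1.80 after scaling. The highest floxed PBS value came from library 5, and without single libraries the log2 difference ranged from -2.48 to -2.36. Mrc1, the mannose receptor, was 37.4 to 48.4 TPM in floxed PBS (median 42.8) and 13.2 to 16.3 TPM in floxed Tat (median 14.9), a log2 difference of -1.51 ± 0.08 (adjusted p = 3.53e-13) and of -0.87 after scaling. Marco, which binds bacteria and particles, moved about as much as the median gene. It was 83.7 to 93.6 TPM in floxed PBS (median 89.8) and 49.1 to 59.6 TPM in floxed Tat (median 52.9), a log2 difference of -0.75 ± 0.05 (adjusted p = 1.12e-11). After scaling the log2 difference of Marco was -0.12 and it no longer passed (adjusted p = 0.033).

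The second comparison, ΔMye Tat against floxed Tat, asks how the same genes differ under Tat when myeloid IKKβ is deleted. It shares the floxed Tat libraries with the first comparison. No member was called at the fold threshold of 3, and 0.440% of tested genes were called higher and 0.316% lower. By the adjusted p, 2 members were lower in ΔMye Tat (Fcgr1 and Fcgr4), against 8.87% of tested genes, and 4 were higher (Fcgr3, Fcgr2b, Marco and Stab1), against 38.8%. The groups did not overlap for Fcgr1, Fcgr3, Fcgr2b and Marco, as for 36.6% of tested genes. The median log2 difference of the members, 0.21, was close to the 0.22 of all tested genes. After scaling, 15.9% of tested genes were higher and 19.4% lower, and among the members Fcgr3 and Fcgr2b were higher and Fcgr1, Fcgr4, Fcer1g and Axl lower.

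Fcgr1 had the largest difference of the members. It was 154, 149.7, 168, 170.4 and 179 TPM in libraries 19 to 23, against 286 to 318 TPM in floxed Tat. All 5 ΔMye Tat values were below every floxed Tat value and above every floxed PBS value. The log2 difference from floxed Tat was -0.87 ± 0.04 (limma adjusted p = 1.74e-12) and -1.09 after scaling, lower than that of all but 1.93% of tested genes. Leaving out any single library gave -0.90 to -0.84.

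Fcgr4 was 106, 106, 115, 105 and 128 TPM in ΔMye Tat, and library 23 reached into the floxed Tat range of 120 to 139 TPM. The log2 difference was -0.19 ± 0.05 (limma adjusted p = 0.00504) and -0.41 after scaling (adjusted p = 3.74e-05). Fcgr4 did not pass the adjusted p of 0.01 without library 11 (adjusted p = 0.0141), 19 (0.0161), 20 (0.0167) or 22 (0.0176). It passed without libraries 19 and 23 together (log2 difference -0.23, adjusted p = 0.00163). Fcgr3 was 254, 263, 249, 242 and 276 TPM, above all floxed Tat libraries (178 to 195 TPM) and below all floxed PBS libraries, with a log2 difference from floxed Tat of 0.46 ± 0.04 (adjusted p = 2.61e-09) and of 0.24 after scaling.

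Fcgr2b was 718, 727, 711, 697 and 759 TPM in ΔMye Tat, the highest of the 3 groups without overlap. Its log2 difference from floxed Tat was 0.35 ± 0.03 (limma adjusted p = 1.63e-09) and 0.13 after scaling (adjusted p = 0.00618), and it did not pass when genes were centred within bins of transcript length (adjusted p = 0.0146). The difference of Fcer1g depended on the scale in its sign. It was 3126, 3295, 3344, 3106 and 3383 TPM against 3031 to 3157 TPM, so the groups overlapped. The log2 difference of Fcer1g was 0.08 ± 0.03 (adjusted p = 0.0171), 0.14 after quantile normalization (adjusted p = 0.000413) and -0.15 after median-ratio scaling (adjusted p = 0.00864). As deposited, Fcer1g passed without library 19 (0.09, adjusted p = 0.00795) or 22 (0.09, adjusted p = 0.0063), but not without libraries 19 and 23 together (0.07, adjusted p = 0.0325).

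Axl stayed high in ΔMye Tat, at 248, 212, 215, 229 and 176 TPM against 221 to 256 TPM in floxed Tat, with overlap. The log2 difference was -0.16 ± 0.08 (limma adjusted p = 0.0758) as deposited and -0.38 after scaling (adjusted p = 1.52e-05). Without libraries 19 and 23 it was -0.14 (adjusted p = 0.109). Mertk was 29.9, 24.5, 23.9, 24.1 and 19.2 TPM against 18.4 to 21.9 TPM, with only library 23 inside the floxed Tat range. Its log2 difference was 0.26 ± 0.09 (adjusted p = 0.0157), 0.34 without library 23 (adjusted p = 0.000918), 0.27 without libraries 19 and 23 (adjusted p = 0.00536) and 0.04 after scaling (adjusted p = 0.659).

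Marco was 68.3, 73.3, 64.4, 72.2 and 69.2 TPM in ΔMye Tat, between the ranges of floxed Tat (49.1 to 59.6 TPM) and floxed PBS (83.7 to 93.6 TPM). Its log2 difference from floxed Tat was 0.39 ± 0.05 (limma adjusted p = 2.13e-06) and 0.17 after scaling (adjusted p = 0.0115). Stab1 was 6.67, 5.86, 5.41, 6.54 and 4.05 TPM, with library 23 alone inside the floxed Tat range of 3.73 to 4.80 TPM. Its log2 difference was 0.47 ± 0.12 (adjusted p = 0.00229), 0.58 without library 23, 0.54 without libraries 19 and 23 (adjusted p = 0.000543) and 0.25 after scaling (adjusted p = 0.0498). Mrc1 was 18.3, 16.8, 18, 17.4 and 13.7 TPM against 13.2 to 16.3 TPM, a log2 difference of 0.16 ± 0.08 (adjusted p = 0.0849) that was 0.24 without library 23 (adjusted p = 0.00768), 0.22 without libraries 19 and 23 (adjusted p = 0.0258) and -0.06 after scaling (adjusted p = 0.503), so its sign depended on the scale.

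**Figure D2:**
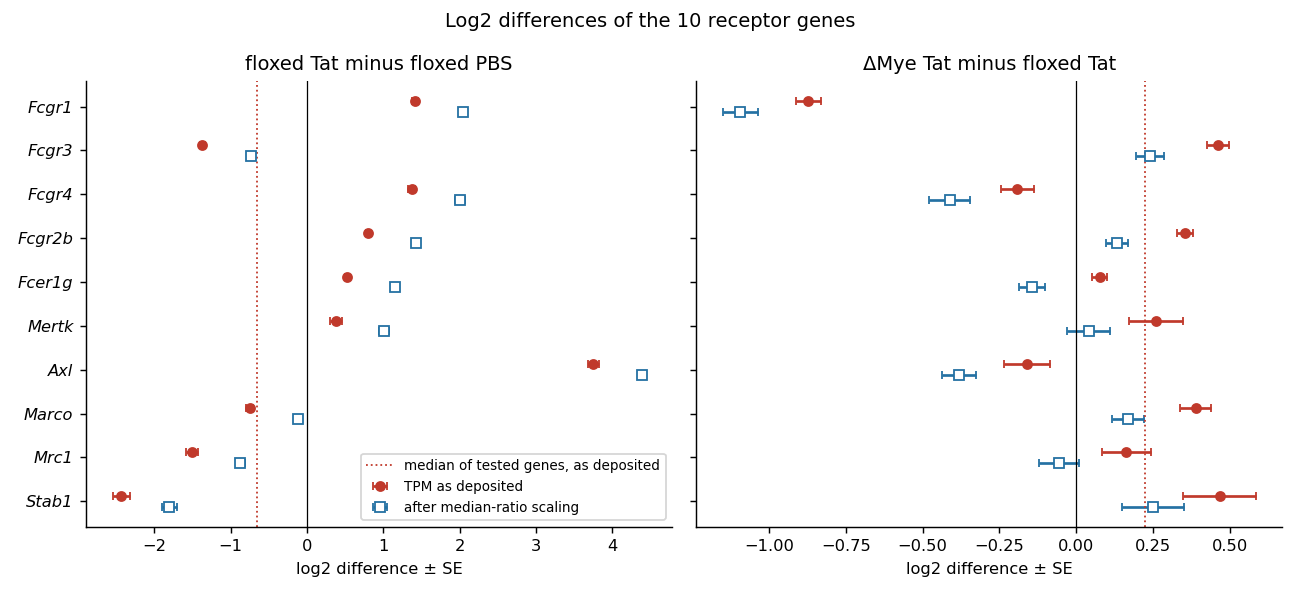
Log2 difference ± SE of each receptor gene between floxed Tat and floxed PBS (left) and between ΔMye Tat and floxed Tat (right), from the deposited TPM (filled circles) and after median-ratio scaling (open squares). The dotted line is the median of all tested genes as deposited, -0.65 on the left and 0.22 on the right. Axl lies farthest right on the left panel and Fcgr1 farthest left on the right panel.

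The third comparison set ΔMye Tat beside floxed PBS and shares libraries with both others. Axl (log2 difference 3.59 ± 0.08) was called higher and Stab1 (-1.97 ± 0.12) lower, against 4.38% and 11.1% of tested genes. By the adjusted p, the same 6 members as with Tat in floxed PMs were higher and the same 4 lower, against 17.5% and 58.8% of tested genes. For Fcgr1 the log2 difference was 1.41 in floxed Tat and 0.54 in ΔMye Tat, each against floxed PBS. For Fcgr3 it was -1.37 and -0.91, and for Fcgr2b 0.79 and 1.15. After scaling these were 2.05 and 0.95 for Fcgr1, -0.73 and -0.49 for Fcgr3, and 1.43 and 1.56 for Fcgr2b. Marco differed from floxed PBS by -0.36 as deposited and by 0.05 after scaling (limma adjusted p = 0.388), so its direction against floxed PBS depended on the scale. A test of the Tat difference between genotypes was not possible with these groups.

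Shares and ratios within a library do not depend on how that library is scaled, and they describe the make-up of the Fc receptor transcripts. The summed TPM of the 4 Fc gamma receptor genes was 941 to 997 in floxed PBS, 1162 to 1203 in floxed Tat and 1214 to 1341 in ΔMye Tat. Fcgr3 made up 49.7% ± 0.484 of this sum in floxed PBS (mean ± SD), 15.8% ± 0.484 in floxed Tat and 20.4% ± 0.489 in ΔMye Tat. Fcgr1 made up 11.6% ± 0.346, 25.4% ± 0.855 and 13.1% ± 0.813. The share of Fcgr1 thus overlapped between floxed PBS (11.3 to 12.3%) and ΔMye Tat (12.0 to 14.0%), with floxed Tat apart at 24.3 to 26.4%. The inhibitory Fcgr2b made up 33.6% ± 0.571, 47.9% ± 1.14 and 57.6% ± 0.737, and Fcgr4 5.09% ± 0.242, 10.8% ± 0.433 and 8.91% ± 0.445. The 3 activating genes together gave 1.97 ± 0.05 times the TPM of Fcgr2b in floxed PBS, 1.09 ± 0.05 times in floxed Tat and 0.737 ± 0.022 times in ΔMye Tat, with no overlap between groups. Fcer1g stood at 3.34 ± 0.08, 5.02 ± 0.14 and 6.11 ± 0.22 times the sum of the 3 activating genes that use its product.

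**Figure D3:**
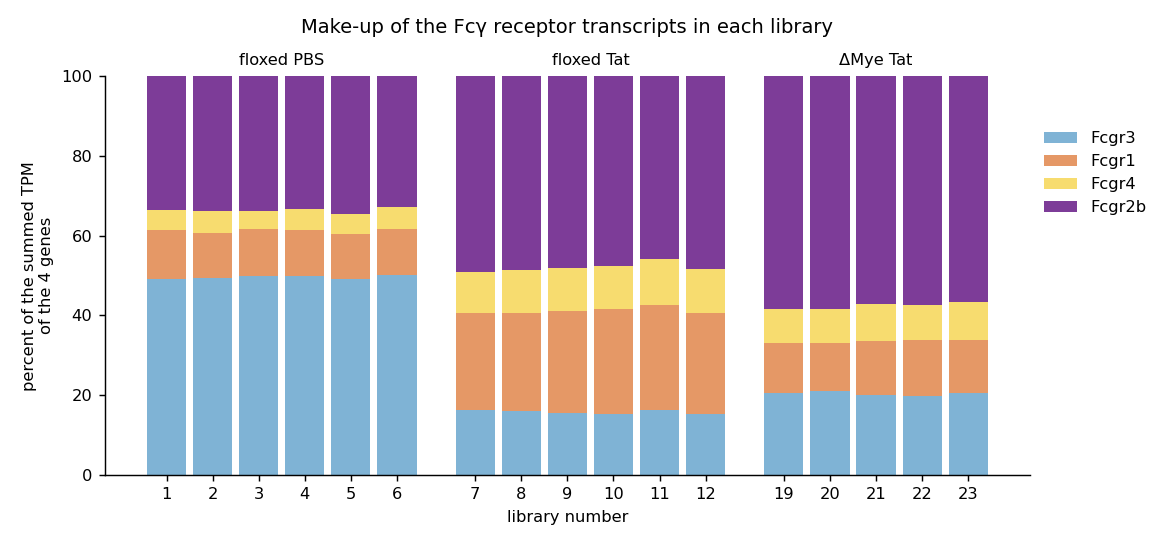
Percent of the summed TPM of Fcgr3, Fcgr1, Fcgr4 and Fcgr2b that each gene contributes (vertical axis) in each library (horizontal axis, library number), by group. Fcgr3 takes 49 to 50.3% in floxed PBS and 15.3 to 16.4% in floxed Tat, and Fcgr2b takes 56.6 to 58.4% in ΔMye Tat.

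Of the 12 tests of ratios (6 ratios in the first 2 comparisons, exact two-sided permutation tests with Benjamini-Hochberg adjustment), all 12 gave an adjusted p under 0.05. The smallest p these tests can give is 0.00216 with 6 against 6 libraries and 0.00433 with 5 against 6. With Tat in floxed PMs, no ratio overlapped between groups, and each had an adjusted exact p of 0.00433. Taken singly, 77.6% of tested genes did not overlap in this comparison, and 36.6% did not between ΔMye Tat and floxed Tat. The share for ratios of other gene pairs was not computed, so separation is not shown to be particular to these pairs. The log2 ratio of Fcgr1 to Fcgr2b was -1.53 ± 0.06 (SD) in floxed PBS, -0.91 ± 0.08 in floxed Tat and -2.14 ± 0.10 in ΔMye Tat, so ΔMye Tat was below both other groups (difference from floxed Tat -1.23, adjusted exact p = 0.00519). That of Fcgr4 to Fcgr2b was -2.73 ± 0.08, -2.15 ± 0.09 and -2.69 ± 0.09 (difference of ΔMye Tat from floxed Tat -0.55, adjusted exact p = 0.00519). The ratio of Fcgr3 to Fcgr2b changed mainly with Tat, by -2.16 on the log2 scale, and by 0.11 between ΔMye Tat and floxed Tat with overlap (adjusted exact p = 0.0142). Fcer1g to Fcgr3 rose by 1.89 with Tat and was 0.39 lower in ΔMye Tat than in floxed Tat, a log2 difference of -0.39 (adjusted exact p = 0.00519).

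Axl and Mertk, the receptor kinases, were nearly level in floxed PBS, with 1.03 to 1.24 times as much Axl as Mertk. In floxed Tat there was 11.2 to 12.9 times as much and in ΔMye Tat 8.30 to 9.51 times. The log2 ratio was thus 3.37 higher with Tat and 0.42 lower in ΔMye Tat than in floxed Tat (a difference of -0.42, adjusted exact p = 0.00519), without overlap. Marco to Mrc1 was 1.86 to 2.39 in floxed PBS, 3.35 to 3.72 in floxed Tat and 3.58 to 5.06 in ΔMye Tat. The ΔMye Tat and floxed Tat ranges of that ratio overlapped (log2 difference 0.22, adjusted exact p = 0.0303). The adjusted exact p was not under 0.05 without library 7, 9, 12, 20, 22 or 23 (adjusted exact p = 0.0556 to 0.0667, and a log2 difference of 0.15 without library 23).

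**Figure D4:**
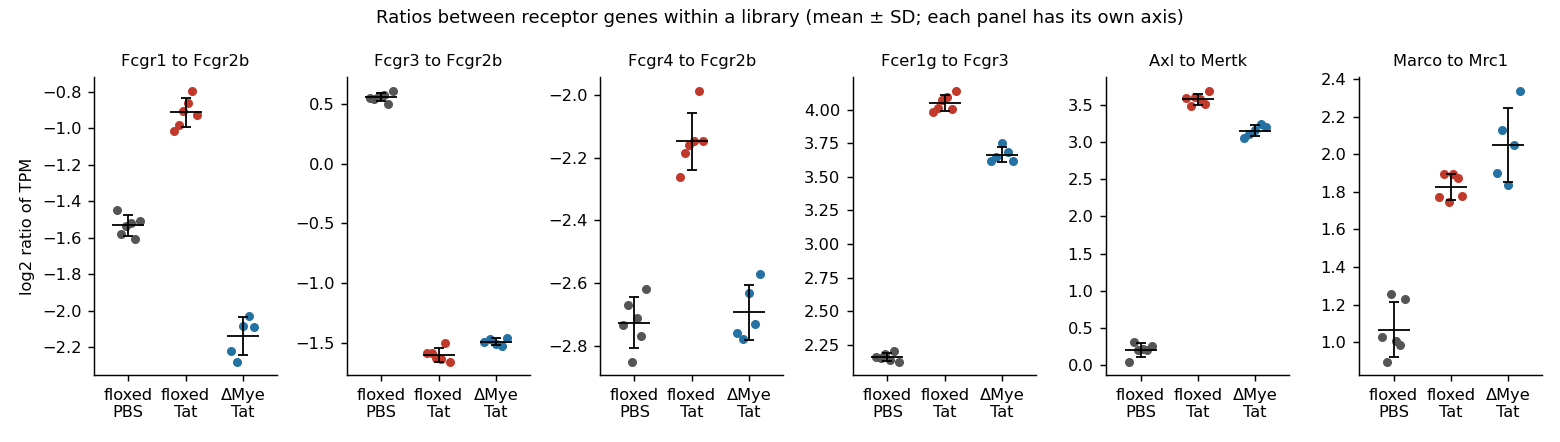
Log2 ratio of TPM between pairs of receptor genes (vertical axes, each with its own range) in each library of the 3 groups, with the mean ± SD in black. Fcgr1 to Fcgr2b is lowest in ΔMye Tat, and Axl to Mertk is near 0 in floxed PBS and above 3 in all Tat libraries.

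For each member, the tested genes with the most similar pattern over the 3 group means were named by their distance on the log2 scale after centring, among 6667 genes, as a description over 3 points. Nearest to Fcgr1 were Carhsp1 (distance 0.06) and Smox (0.06), to Fcgr4 Jarid2 and Tes (both 0.02), and to Axl Tgtp2 (0.04) and Vnn3 (0.07). Tgtp2, an interferon-inducible GTPase, was 14.0, 182 and 164 TPM in floxed PBS, floxed Tat and ΔMye Tat. For Fcgr3 they were Mrps15 and Gpn3, for Fcgr2b Clcn7 and Adgrg6, for Fcer1g Mcl1 and Snx20, for Mertk Prkcd and Hook3, for Marco Bmp2k and Mesd, for Mrc1 Tkt and Sc5d, and for Stab1 Hs6st1 and Entpd5, all within 0.04. Among the members, Axl lay farthest from any other, with Fcgr4 nearest at 1.96. Next were Stab1, with Mrc1 nearest at 0.667, and Fcgr1, with Fcgr4 nearest at 0.54.

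The partners of the receptors were examined as lists, described by counts at the adjusted p. Over all tested genes, 17% rose and 67.6% fell with Tat in floxed PMs (37.3% and 38.0% after scaling). Between ΔMye Tat and floxed Tat, 38.8% were higher and 8.87% lower (15.9% and 19.4% after scaling). The medians of all tested genes were -0.65 and 0.22 in these comparisons (-0.03 and 0.01 after scaling). Whether a list differs from all tested genes was not tested. Of 16 genes of Fc receptor signalling, all were tested, and with Tat in floxed PMs 3 rose and 9 fell, with a median log2 difference of -0.33 (0.31 after scaling, when 11 rose and 4 fell). Those that rose included Lcp2, an adaptor of the pathway (66.0 ± 4.49 to 235 ± 6.69 TPM), and the Src family kinase Lyn. Fgr, also a Src family kinase, fell from 56.1 ± 2.24 to 8.66 ± 1.03 TPM, and Inpp5d, the inositol phosphatase recruited by the inhibitory receptor, from 40.9 ± 1.42 to 6.47 ± 0.757 TPM. In ΔMye Tat, 10 of the 16 were higher than in floxed Tat and 0 lower, with a median of 0.27 (0.05 after scaling, 7 higher and 4 lower). Among them Fgr was 23 ± 1.33 TPM (log2 difference 1.40 ± 0.07, limma adjusted p = 4.79e-12) and Inpp5d 10.5 ± 1.14 TPM (0.69 ± 0.08, adjusted p = 6.58e-07). Lcp2 did not pass as deposited (0.08, adjusted p = 0.136) and was -0.14 after scaling.

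Of 12 other Fc receptors, 6 were tested, and with Tat 2 rose and 4 fell (median -0.96, and -0.36 after scaling). Trim21, the cytosolic antibody receptor, rose from 14.4 ± 0.666 to 59.3 ± 1.87 TPM and was 39.3 ± 2.13 TPM in ΔMye Tat (log2 difference from floxed Tat -0.59 ± 0.04, limma adjusted p = 1.91e-09). Fcgrt, the neonatal Fc receptor, fell from 11.7 ± 1.74 to 5.05 ± 0.464 TPM. The other that rose was Fcrlb, and Trim21 and Fcrl1 were the 2 lower in ΔMye Tat than in floxed Tat, where 0 were higher.

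Of 18 other scavenger receptors, 10 were tested, and with Tat 4 rose and 5 fell (median -0.14, and 0.50 after scaling, when 6 rose and 3 fell). Scarf1, a receptor for modified lipoproteins, rose from 12.5 ± 1.18 to 39.2 ± 1.08 TPM, and Cxcl16, a scavenger receptor that is also a chemokine, from 58.4 ± 4.09 to 167 ± 4.50 TPM. Scarb1, the high-density lipoprotein receptor, fell from 40.1 ± 2.10 to 6.07 ± 0.798 TPM, and Lrp1, a large endocytic receptor, from 99.0 ± 20.3 to 30.3 ± 4.53 TPM. In ΔMye Tat 5 were higher than in floxed Tat and 0 lower (median 0.37, and 0.15 after scaling, 4 higher and 3 lower), Scarb1 at 10.7 ± 1.15 TPM (log2 difference 0.81 ± 0.08, limma adjusted p = 1.62e-07) and Cxcl16 at 226 ± 7.60 TPM among them. Lrp1, with a long transcript, spread from 22.4 to 67.0 TPM in ΔMye Tat, and its log2 difference of 0.44 passed the adjusted p only without library 23 (0.65, adjusted p = 0.00153) or without libraries 19 and 23 (0.48, adjusted p = 0.00864).

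Of 19 ligands and other receptors of efferocytosis, 15 were tested, and with Tat 4 rose and 11 fell (median -0.84, and -0.21 after scaling, when 4 rose and 10 fell). Thbs1, a bridging molecule, rose from 99.2 ± 5.55 to 724 ± 50.7 TPM, and Cd47, the signal against uptake, from 161 ± 6.64 to 441 ± 13.9 TPM. Itgb5, an integrin subunit that binds bridged cells, fell from 67.1 ± 4.40 to 9.28 ± 0.767 TPM, and C1qc, a chain of the bridging complement protein C1q, from 253 ± 16.4 to 115 ± 7.58 TPM. Gas6, the ligand of Axl and Mertk that was picked out after its values were seen, fell from a mean of 7.61 to 1.01 TPM (log2 difference -2.79). Tyro3, the third receptor kinase of the family, did not reach the level for testing. In ΔMye Tat 9 were higher than in floxed Tat and 3 lower (median 0.32, and 0.10 after scaling, 4 higher and 4 lower). Of the 3 lower, Cd47 was at the threshold as deposited (log2 difference -0.12 ± 0.04, limma adjusted p = 0.00675). It did not pass without library 9, 10, 11, 12, 19, 20 or 22 (adjusted p = 0.0122 to 0.0249). Nor did it without libraries 19 and 23 together (adjusted p = 0.011), without the expression filter (0.0108) or after quantile normalization (0.0146). After median-ratio scaling the log2 difference of Cd47 was -0.34 (adjusted p = 1.56e-05). C1qc was 205 ± 11.1 TPM (0.84 ± 0.05, limma adjusted p = 1e-10) and Thbs1 264 ± 43.9 TPM (-1.47 ± 0.08, adjusted p = 3.78e-11). Timd4, a receptor for exposed phosphatidylserine, was the list's called gene, with means of 21.7 TPM in floxed Tat and 7.09 TPM in ΔMye Tat.

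Of 12 genes of the engulfment machinery, 11 were tested, and with Tat 3 rose and 7 fell (median -0.94, and -0.31 after scaling, when 5 rose and 6 fell). Xkr8, a scramblase, rose from 4.94 ± 0.456 to 42.8 ± 1.28 TPM, and Ptk2, the focal adhesion kinase, from 6.84 ± 1.40 to 13.3 ± 0.677 TPM. Elmo2, part of the complex that activates Rac, fell from 27.8 ± 2.04 to 7.02 ± 0.543 TPM, and Ucp2, a mitochondrial carrier, from 385 ± 15.2 to 99.7 ± 5.51 TPM. In ΔMye Tat 7 were higher than in floxed Tat and 2 lower (median 0.25, and 0.04 after scaling, 3 higher and 2 lower). Elmo2 was 11.6 ± 0.949 TPM and Ucp2 163 ± 6.27 TPM there, both higher, and Xkr8 34.0 ± 2.57 TPM and Ptk2 8.77 ± 1.31 TPM, both lower.

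**Figure D5:**
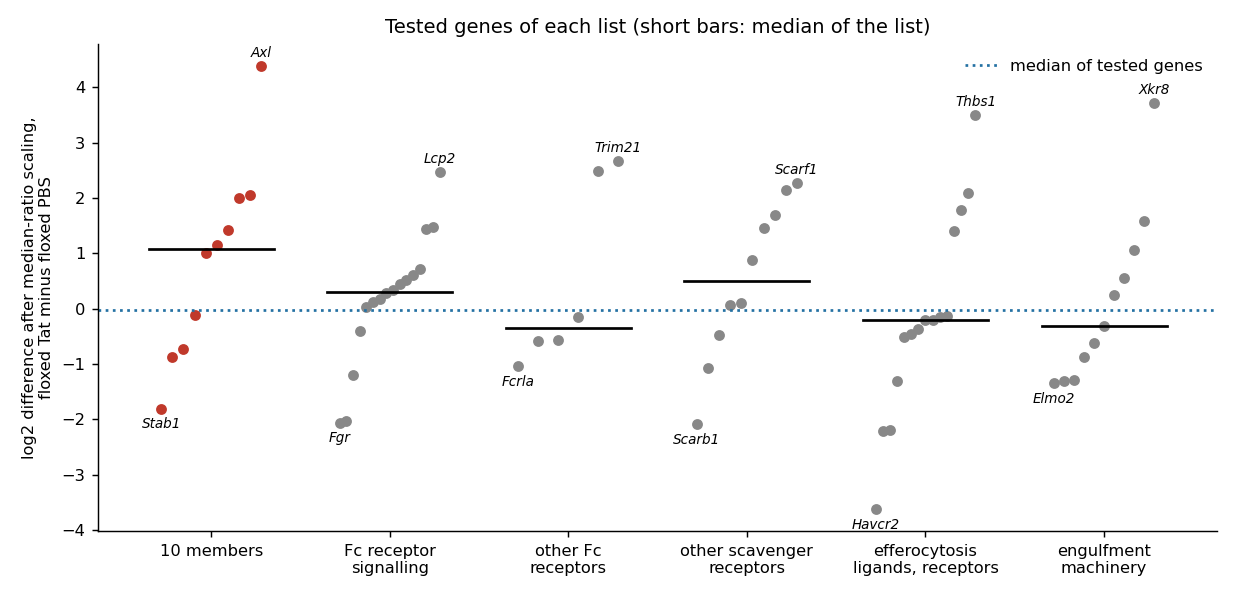
Log2 difference after median-ratio scaling between floxed Tat and floxed PBS (vertical axis) of the tested genes of each list, with the list's median as a short bar and the highest and lowest gene named. The dotted line is the median of all tested genes, -0.03. The 10 members reach from -1.80 for Stab1 to 4.38 for Axl, and each list has genes on both sides of the line.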

How the data were processed

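RNA was sequenced from 17 PM libraries, grouped by the labels. The authors deposited 1 table of TPM per gene symbol, made with Salmon on the Ensembl GRCm38 annotation (labels: mm10), whose version is not given in the sources used here. TPM hold no counts, so depth and counting error are unknown. Labels and methods differ on the days from thioglycollate to collection.

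The test was limma 3.58.1 (R 4.3.3) on log2(TPM + 0.1), with eBayes using a mean-variance trend, over the 10451 genes that reached 1 TPM in 5 or more libraries. All 3 groups entered 1 model (14 residual degrees of freedom), and p-values were Benjamini-Hochberg adjusted over those genes. Fold changes of low genes are understated on this scale. A call needed both an adjusted p under 0.01 and more than 3-fold change, as in the study's methods, and only the former where stated. The fit was tested on simulated data. Ratios were compared by exact permutation in scipy 1.17.1. Coordinates and shared sequences came from GENCODE M21 and promoters from RefSeq, which matched all 10 members.

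The members and lists were chosen with earlier results of these data known. Beside the members and Ikbkb, the text names from each list the 2 highest and 2 lowest differences with Tat at a mean of at least 10 TPM. The top gene is named for some marker lists only. Other genes were named after their values were seen. A genotype that all groups share and 1 gene the rule picks are not reported here. Alternatives were another pseudocount (0.5 or 1), filter, scaling, fold threshold or fit, and single libraries left out. Leaving out libraries 19 and 23 together and centring within 20 bins of transcript length were chosen after seeing the data.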

Additional observations from a re-analysis of the deposited data

Results flagged for a closer look

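Stab1 in library 5 of floxed PBS stood apart from the other libraries of its group, at 28.9 TPM against 22.1 TPM in the nearest. The gap was 0.812 of the group's range, above Dixon's 95% critical value for 6 samples. It was the 1 case in 30 groups of values (10 genes in 3 groups), and chance gives about 1 in 20.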

How the results depend on the processing

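No paired analysis was possible because the library numbers in the labels are not shared between groups. With Tat in floxed PMs, members called higher numbered 3 after median-ratio scaling, in length bins or at a fold of 2, and 6 with no fold threshold, against 1 as reported. Members called lower numbered 3 at a fold of 2 and 4 with no fold threshold, against 1. Between ΔMye Tat and floxed Tat, 4 were called higher and 2 lower with no fold threshold, against 0 and 0. By the adjusted p, 2 were higher and 4 lower after median-ratio scaling or in length bins, against 4 and 2. With single libraries left out, those lower numbered 1 to 2. Those higher also grew, by Mertk and Mrc1 without library 23 and by Fcer1g without library 19 or 22. Between ΔMye Tat and floxed PBS, those called higher numbered 2 after median-ratio scaling, 3 in length bins or at a fold of 2 and 6 with no fold threshold, against 1. Those called lower numbered 0 after median-ratio scaling or quantile normalization, 2 at a fold of 2 and 4 with no fold threshold, against 1.

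After median-ratio scaling and in length bins, these log2 differences changed sign: between ΔMye Tat and floxed Tat, Fcer1g (-0.15 and -0.14), Mrc1 (-0.056 and -0.034, and -0.044 after quantile normalization), Lcp2 (-0.14 and -0.15) and Scarf1 (-0.18 and -0.19, and -0.094 after quantile normalization); between ΔMye Tat and floxed PBS, Marco (0.050 and 0.035) and C1qc (0.11 and 0.25). Scaling moves all genes of a library together; the cause of the shift was not tested. Of the members' log2 differences under the alternatives, 783 kept direction and side of the threshold, 11 lost the threshold, 9 gained it and 7 changed sign. Of the ratios, 210 kept both and 6 lost the threshold. Without read counts, how far depth limits the low genes, such as Stab1 in Tat libraries, is unknown.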

Other observations

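Transcript length also moved with Tat over all genes. The median log2 difference between floxed Tat and floxed PBS was -0.76 in the shortest quartile of transcripts, which holds Fcgr3, Fcgr4 and Fcer1g, then -0.67 and -0.62, and -0.54 in the longest, which holds Mrc1 and Stab1. Between ΔMye Tat and floxed Tat the 4 medians were 0.22, 0.22, 0.22 and 0.23. The part of this in the members' values was not tested beyond centring within length bins. Centred in that way, the log2 difference with Tat was 2.07 for Fcgr1, -0.68 for Fcgr3 and -1.97 for Stab1.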
